A study of Mus musculus with 4 samples.

Results

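The genes followed here encode proteins that are targets of antibodies or mark deposits in membranous nephropathy, measured in a mouse podocyte line. There are 10: Thsd7a, Pla2r1, Nell1, Sema3b, Pcdh7, Htra1, Ncam1, Mme, Ext1 and Ext2. They were chosen by name, with earlier results for these same libraries already known, and each was found by its Ensembl identifier among the 56393 genes of the count table. All 10 were in the table, and 8 of them were among the 14187 genes whose estimated counts averaged 50 or more over the libraries. Because the levels and ratios across the libraries entered the choice, the values are a description and carry no test.

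The libraries came from MPC, a conditionally immortalised murine podocyte line that grows at a permissive temperature with interferon-γ and was moved to the higher temperature without it for a week to differentiate. Each of the 4 groups had 1 library: sh-JAML/HG (hairpin against Jaml, D-glucose to a final 40 mmol/L, for 24 h per the design text), sh-JAML (the same hairpin without added glucose), sh-NC/HG (control hairpin with the same glucose) and sh-NC (control hairpin without it). All groups share the cell line, a hairpin and the differentiation, and the labels name no control for osmolarity. Nothing in the labels says whether a hairpin line is 1 clone. With 1 library per group there is no spread between replicates, so no difference below was tested against one.

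Membranous nephropathy is a kidney disease in which antibodies bind proteins on or under podocytes, the epithelial cells of the glomerular filter, and immune complexes and complement collect on the outer side of the basement membrane. Some targets are made by the podocyte itself and sit on its surface, such as the phospholipase A2 receptor, THSD7A and neprilysin in humans. Others are secreted, such as NELL1, semaphorin 3B and the protease HTRA1, and the exostosins EXT1 and EXT2 mark a form seen with autoimmune disease.

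The libraries held 79330461 to 94341975 estimated counts and 23148 to 23736 genes above 0. Low values piled up at multiples of 4, so 4 units were taken as 1 sequenced fragment, and intervals below are exact 95% intervals on fragments that cover counting error only. Jaml, the hairpin's target, was at 0 in all 4 libraries (at most 0.151 CPM by the limit of 3 fragments that a count of 0 allows), so the knockdown could not be seen. The sh-NC/HG library stood apart: 974 genes (6.87%) differed at least 2-fold between it and the mean of the other 3, against 332 to 370 genes for each of the others. The 13 mitochondrially encoded mRNAs made up 1.33% of it and 1.95% to 2.15% of the other libraries. Of 16 podocyte markers, 13 were above the floor of 12 units in each library, while Tcf21 had none. The tubule genes Cdh16, Lrp2, Pax8 and Aqp1 were also present (at least 437, 232, 173 and 94.9 CPM). Of the 12 tubule markers, however, 6 or 7 passed the floor in a library, with Slc34a1 and Umod at 0 in all 4. The summed level of the 6 leukocyte markers was 3.10 to 4.53 CPM. The tubule markers summed to 946 CPM in sh-JAML/HG, 1357 CPM in sh-JAML, 1627 CPM in sh-NC/HG and 1346 CPM in sh-NC. The 5 erythroid genes, mostly globins, summed to 0.650 CPM in sh-JAML/HG, 42.0 CPM in sh-JAML, 0.654 CPM in sh-NC/HG and 37.5 CPM in sh-NC. The 6 mesangial markers summed to 815 to 1219 CPM, most of it Acta2, with Itga8 and Ren1 at 0, and the 7 endothelial markers to 18.6 to 31.0 CPM, with Kdr at 0. In bulk RNA, fewer cells that carry a transcript and less transcript per cell cannot be told apart.

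Per length of exon, the antigen genes ran from abundant to barely detected. Mme, which encodes the membrane metallopeptidase neprilysin, was the highest, at 46.5 to 62.2 TMM-scaled CPM per kb, above 91.7% to 94.3% of the genes past the count minimum. The exostosin genes followed, Ext1 at 38.8 to 45.3 and Ext2 at a mean of 26.1 CPM per kb, and Ncam1, the neural cell adhesion molecule gene, stood at 9.92 to 11.6 CPM per kb. Thsd7a, Htra1 and Sema3b lay lower, between 0.195 and 1.82 CPM per kb, and Pcdh7 lower still, at 0.0669 to 0.151 CPM per kb. Pla2r1 did not pass 0.0314 CPM per kb and Nell1 did not pass 0.0177 CPM per kb.

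The order of the first 4 was the same in each library, and their neighbours in it were separated by more than their counting intervals except Mme (46.5 CPM per kb) and Ext1 (45.3 CPM per kb) in sh-NC/HG. In sh-JAML/HG, sh-JAML and sh-NC, Thsd7a came next, above Htra1 and Sema3b, whose intervals overlapped. In sh-NC/HG it stood below Sema3b and Htra1, with an interval that overlapped that of Pcdh7. Pla2r1 and Nell1 were not separated in any of the libraries.

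**Figure D1:**
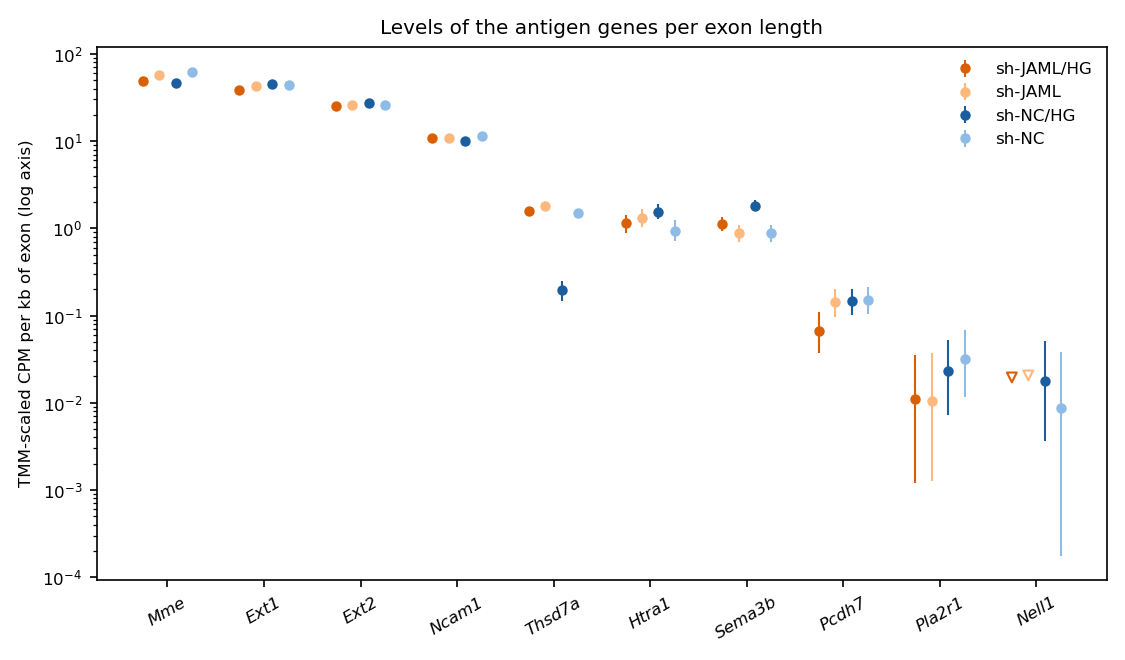
Level of each antigen gene as TMM-scaled CPM per kb of exon (log axis) in the 4 libraries, with exact 95% counting intervals as lines; open triangles mark the limit of 3 fragments where the count was 0. Thsd7a stands at 0.195 CPM per kb in sh-NC/HG and between 1.51 and 1.81 in the other libraries, while Mme, Ext1, Ext2 and Ncam1 keep to a narrow range.

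Thsd7a was the antigen gene with the widest spread. It encodes a membrane protein with thrombospondin type 1 repeats at the podocyte foot process, and in GENCODE M21 (mm10) it is a protein-coding gene on the minus strand of chromosome 6 from 12311610 to 12749410 with 31 exon blocks (ENSMUSG00000032625). Its estimated counts were 1844 in sh-JAML/HG, 1995 in sh-JAML, 250 in sh-NC/HG and 1649 in sh-NC, or 21.8, 24.9, 2.68 and 20.7 CPM in that order. The sh-NC/HG library was thus far below the rest, which lay between 20.7 and 24.9 CPM. The control line with glucose had 7.74-fold less Thsd7a than without (5.96 to 10.4), and 42 of the 14187 genes had a lower ratio. In the Jaml hairpin line the same exposure went with a ratio of 0.877 (0.771 to 0.997). Of the 3 genes annotated within the span of Thsd7a, none had more than 2 units in a library, and no exon base of it was shared with another gene.

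The promoter windows of Thsd7a, of Pcdh7, the other antigen gene with a low library, and of Ext2, the one with the narrowest spread, are shown to set a varying gene beside a steady one. They are RefSeq windows on GRCm38.p6 that run from 250 bases before to 50 bases after the start, written 5′ to 3′ on the gene's strand, at chr6:12749204-12749503 (minus), chr5:57717831-57718130 (plus) and chr2:93822519-93822818 (minus). Capitals mark matches on either strand to the GC box GGGCGG, the CCAAT box, the TATA box TATAAA or the E-box CACGTG; no 2 matches overlap in these windows.
Thsd7a: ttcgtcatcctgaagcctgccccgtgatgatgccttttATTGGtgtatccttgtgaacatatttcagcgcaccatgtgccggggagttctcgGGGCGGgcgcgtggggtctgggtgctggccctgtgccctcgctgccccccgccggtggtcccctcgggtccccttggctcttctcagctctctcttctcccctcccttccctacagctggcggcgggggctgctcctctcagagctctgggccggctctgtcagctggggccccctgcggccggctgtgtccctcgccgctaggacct
Pcdh7: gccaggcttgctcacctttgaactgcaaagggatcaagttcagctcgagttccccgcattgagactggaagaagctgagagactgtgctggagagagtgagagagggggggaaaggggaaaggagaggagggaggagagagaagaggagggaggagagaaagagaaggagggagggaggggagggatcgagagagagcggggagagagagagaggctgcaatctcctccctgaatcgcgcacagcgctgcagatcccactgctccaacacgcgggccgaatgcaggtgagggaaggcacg
Ext2: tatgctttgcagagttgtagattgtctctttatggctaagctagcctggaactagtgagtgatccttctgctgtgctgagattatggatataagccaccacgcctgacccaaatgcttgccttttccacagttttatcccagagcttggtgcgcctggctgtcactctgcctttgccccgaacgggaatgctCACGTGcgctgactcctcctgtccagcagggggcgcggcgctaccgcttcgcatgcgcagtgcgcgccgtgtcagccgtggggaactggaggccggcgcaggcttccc
The GC box was in 35.7% of all 32851 windows, the CCAAT box in 37.4%, the TATA box in 13.6% and the E-box CACGTG, part of the element read by glucose-sensing MondoA and ChREBP with MLX, in 7.15%. The Thsd7a window held 1 GC box and 1 CCAAT match and no E-box. The Ext2 window held 1 E-box and the Pcdh7 window none of the 4 motifs. These are letters in a window and not bound sites. In all, 7 of the 10 genes had a window, and Sema3b, Ncam1 and Ext1 had none in the table.

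**Figure D2:**
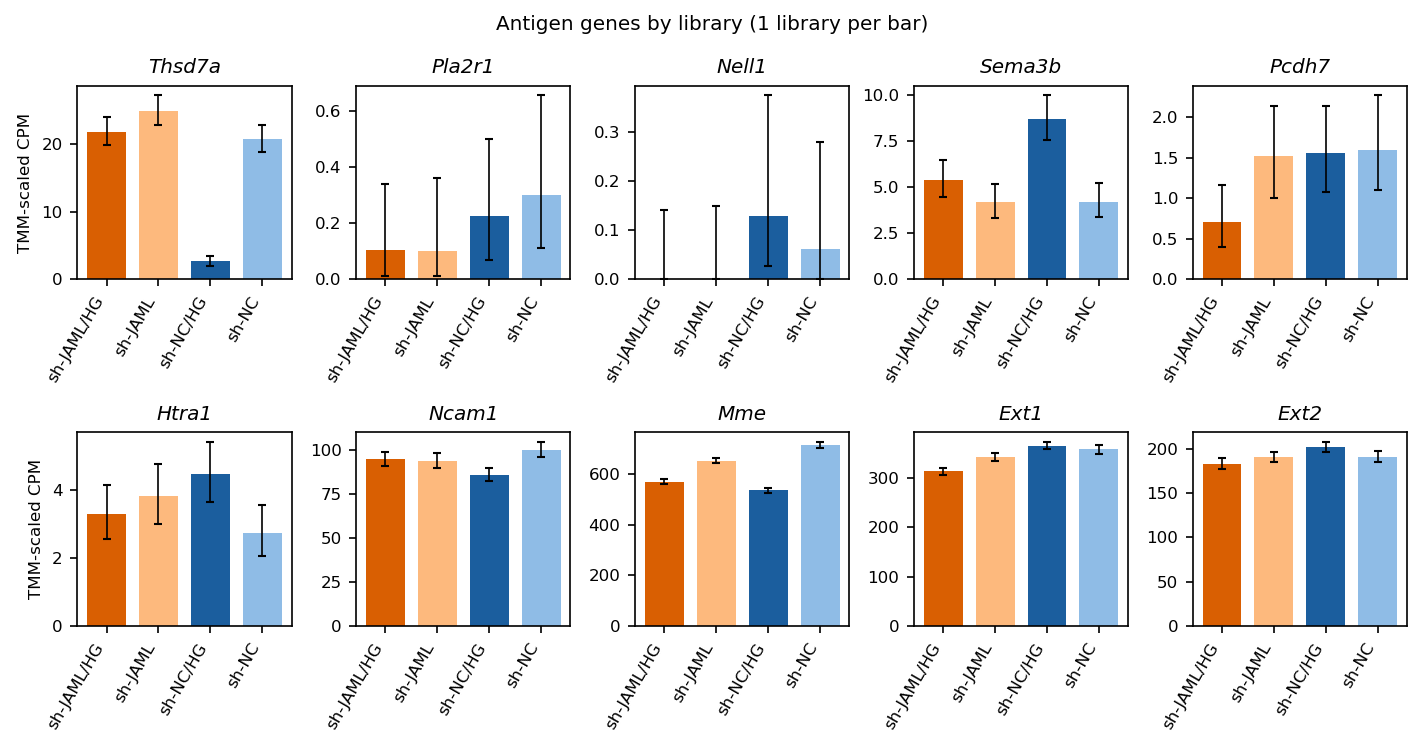
TMM-scaled CPM of each antigen gene in each library (bars, 1 library each, axes from 0) with exact 95% counting intervals as lines. Thsd7a is at 2.68 CPM in sh-NC/HG and at 20.7 CPM or more elsewhere, and Sema3b is highest in sh-NC/HG, at 8.69 CPM.

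Pla2r1, which encodes the M-type phospholipase A2 receptor, the most frequent target in adult patients, was barely sequenced. It lies on chromosome 2 from 60417543 to 60553308 (minus strand, ENSMUSG00000054580). It had 9 units in sh-JAML/HG, 8 in sh-JAML, 21 in sh-NC/HG and 24 in sh-NC, or 2.25, 2, 5.25 and 6 fragments. The sh-JAML to sh-NC ratio was 0.330 with an interval from 0.0326 to 1.85, and the sh-NC/HG to sh-NC ratio 0.746 (0.171 to 2.79), so no difference was detectable at this depth. The antisense gene Gm13583 shares 3.11% of its exon bases and had 8 units or fewer. Healthy mouse podocytes are known to carry little of this receptor, unlike human ones.

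Mme was the most abundant antigen gene. Neprilysin is a peptidase of the podocyte and proximal tubule surface and the target in newborns whose mothers lack the enzyme. The gene lies on the plus strand of chromosome 3 from 63241537 to 63386030. Its level was 571 CPM in sh-JAML/HG, 655 CPM in sh-JAML, 537 CPM in sh-NC/HG and 717 CPM in sh-NC. Both glucose libraries were thus below both libraries without added glucose, and within each glucose condition the hairpin lines were closer together. The erythroid genes given above were likewise low in both glucose libraries, and their part in the Mme values was not tested. The ratio of sh-NC/HG to sh-NC was 0.748 (0.730 to 0.766) and that of sh-JAML/HG to sh-JAML 0.872 (0.851 to 0.894). Across all genes the middle of the sh-NC/HG to sh-NC log2 ratios ran from -0.23 to 0.24 (quartiles), and Mme was at -0.42; in the Jaml hairpin pair the quartiles were -0.13 and 0.11, and Mme was at -0.20.

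Ncam1 encodes an adhesion molecule of the immunoglobulin family that is a target in some patients with lupus. It lies on the minus strand of chromosome 9 from 49502136 to 49798925. It stood at 94.9 CPM in sh-JAML/HG, 93.98 CPM in sh-JAML, 85.9 CPM in sh-NC/HG and 100.3 CPM in sh-NC. The highest level was 1.17 times the lowest. The antisense gene Gm11149 shares 4.81% of its exon bases and had at most 13 units.

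Pcdh7, a protocadherin gene of the delta group whose product is a target in older patients, lies on the plus strand of chromosome 5 from 57717967 to 58133230. It had 60 units in sh-JAML/HG, 122 in sh-JAML, 146 in sh-NC/HG and 127 in sh-NC, or 0.709, 1.52, 1.56 and 1.60 CPM. The sh-JAML/HG library was low and the others were alike within their intervals. Pcdh7 was 2.14-fold lower in sh-JAML/HG than in sh-JAML (1.10 to 4.22) and 2.21-fold lower than in sh-NC/HG (1.16 to 4.28).

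An antisense gene bears on that difference. The noncoding gene 4932441J04Rik shares 21.1% of the exon bases of Pcdh7 on the opposite strand, and it had 45 units in sh-JAML/HG, 0 in sh-JAML, 0 in sh-NC/HG and 3 in sh-NC. Its count was highest where Pcdh7 was lowest, and the strand setting of the counting is not given in the sources used here, so reads of these genes may not be told apart. Summed over the pair, the counts were 105 in sh-JAML/HG, 122 in sh-JAML, 146 in sh-NC/HG and 130 in sh-NC, and the sum was 1.22-fold lower in sh-JAML/HG than in sh-JAML, a ratio of 0.816 (0.467 to 1.44). The lower level of Pcdh7 in sh-JAML/HG is therefore uncertain.

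Of the secreted targets, Sema3b was the one with a difference past 2-fold. Semaphorin 3B is a secreted guidance protein that signals through neuropilins and plexins and is a target mainly in children. The gene lies on the minus strand of chromosome 9 from 107597674 to 107609229. It had 454 units in sh-JAML/HG, 335 in sh-JAML, 811 in sh-NC/HG and 336 in sh-NC, or 5.37, 4.17, 8.69 and 4.22 CPM. Both libraries without added glucose were alike and both glucose libraries were above them. In the control line Sema3b was 2.06-fold higher with glucose (1.59 to 2.69) and in the Jaml hairpin line 1.29-fold higher, with an interval (0.963 to 1.73) that holds 1.

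Htra1 encodes a secreted serine protease that cleaves matrix proteins. It lies on the plus strand of chromosome 7 from 130936111 to 130985660 and had 3.27 CPM in sh-JAML/HG, 3.81 CPM in sh-JAML, 4.47 CPM in sh-NC/HG and 2.72 CPM in sh-NC. Among these, sh-NC was the lowest and sh-NC/HG the highest. The ratio of sh-NC/HG to sh-NC was 1.65 (1.17 to 2.32), and that of sh-JAML/HG to sh-JAML was 0.859 (0.613 to 1.21). Fgfr2 overlaps the span of Htra1 on the opposite strand, with 10785 to 12633 units against 216 to 417 for Htra1. No annotated exon base of Htra1 is shared with another gene, and the part of Fgfr2 reads in the Htra1 counts was not tested. Nell1, which encodes a secreted growth regulator that is a target in cancer-associated disease, had 0 units in sh-JAML/HG, 0 in sh-JAML, 12 in sh-NC/HG and 5 in sh-NC. A count of 0 allows 0.142 CPM in sh-JAML/HG and 0.150 CPM in sh-JAML, above the 0.129 CPM measured in sh-NC/HG, so no fold is given for it.

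Ext1 and Ext2 encode the partners of the Golgi enzyme that builds the heparan sulfate chain. They lie on chromosome 15 (53064038 to 53346159) and on chromosome 2 (93661028 to 93822568), both on the minus strand. Ext1 stood at 314 CPM in sh-JAML/HG, 342 CPM in sh-JAML, 366 CPM in sh-NC/HG and 358 CPM in sh-NC. Ext2 stood at 183 CPM in sh-JAML/HG, 190 CPM in sh-JAML, 202 CPM in sh-NC/HG and 191 CPM in sh-NC. For both genes sh-JAML/HG was the lowest and sh-NC/HG the highest library. The highest level was 1.17 times the lowest for Ext1 and 1.10 times for Ext2, the narrowest range of the 8 measured genes.

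With glucose in the control hairpin line (sh-NC/HG over sh-NC), 2 of the 8 measured antigen genes differed at least 2-fold, Sema3b higher and Thsd7a lower, where 7.92% of all genes did (4.65% higher and 3.27% lower). Of the 8, 4 lay above a ratio of 1 and 4 below it, and the median log2 ratio was 0.0012, against 0.0016 over all genes. With glucose in the Jaml hairpin line (sh-JAML/HG over sh-JAML), 1 of 8 differed at least 2-fold, Pcdh7, which was lower, where 2.88% of all genes did (1.31% higher and 1.56% lower). Of the 8, 2 lay above 1 and 6 below, with a median of -0.16 against -0.00036 over all genes. That count is 0 once the antisense counts are added to Pcdh7.

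For the hairpin without added glucose (sh-JAML over sh-NC), 0 of 8 antigen genes differed at least 2-fold, where 2.71% of all genes did (1.31% higher and 1.40% lower). The furthest was Htra1, at 1.40-fold higher in sh-JAML (0.971 to 2.02), followed by Thsd7a at 1.20-fold higher (1.05 to 1.37). The other 6 lay below 1, the nearest being Ext2 at 0.998 (0.954 to 1.04); Ext2 and Sema3b move above 1 when library totals replace TMM scaling. Under glucose (sh-JAML/HG over sh-NC/HG), 2 of 8 differed at least 2-fold, where 7.59% of all genes did (2.81% higher and 4.78% lower). Thsd7a was 8.14-fold higher in sh-JAML/HG (6.28 to 10.9), with 33 genes at a higher ratio, and Pcdh7 was lower. The count is 1, Thsd7a, with the antisense counts added. Sema3b was 1.62-fold lower in sh-JAML/HG (1.28 to 2.05). This pair and the glucose pair of the control line share sh-NC/HG, so its low Thsd7a and high Sema3b enter both.

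**Figure D3:**
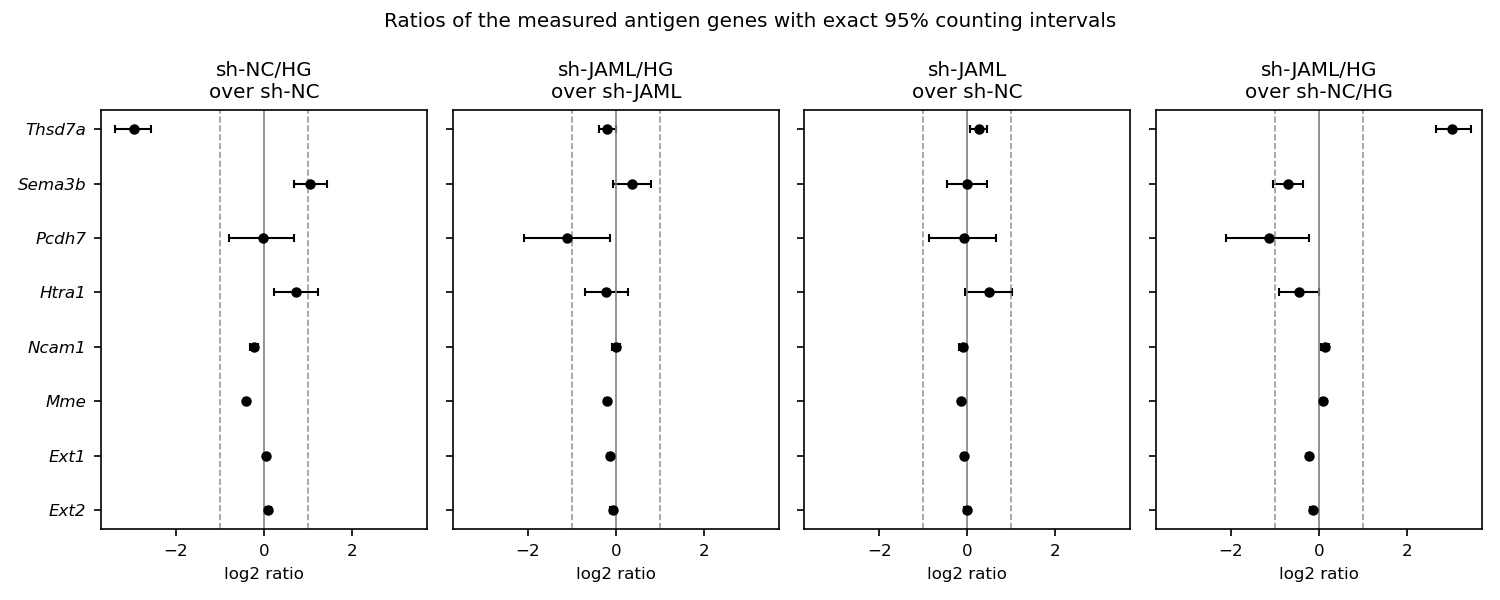
Log2 ratio of the 8 measured antigen genes in the 4 pairs of libraries, with exact 95% counting intervals; dashed lines mark 2-fold. Thsd7a lies far from 0 in both pairs that hold sh-NC/HG (7.74-fold lower there against sh-NC, 8.14-fold higher in sh-JAML/HG than in it) and within 1.20-fold in the others.

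The glucose ratio of Thsd7a differed between the hairpin lines by -2.76 on the log2 scale (control minus Jaml hairpin line), and 180 of the 14187 genes, Thsd7a among them, had a difference of at least that size in either direction. For Pcdh7 the difference was 1.06, or 0.23 with the antisense counts added, for Htra1 0.94 and for Sema3b 0.68. For Ncam1, Mme, Ext1 and Ext2 it was between -0.24 and 0.16, and between 29.0% and 45.6% of all genes had a smaller one. These differences each rest on 4 libraries and were not tested. The mitochondrial mRNAs were lower in the same library as Thsd7a, with a median log2 ratio of -0.74 over the 13 genes in sh-NC/HG over sh-NC against 0.10 in sh-JAML/HG over sh-JAML; their part in the Thsd7a difference was not tested. The 12 measured podocyte markers had a median of 0.016 in sh-NC/HG over sh-NC, with 6 above 0 and 6 below.

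**Figure D4:**
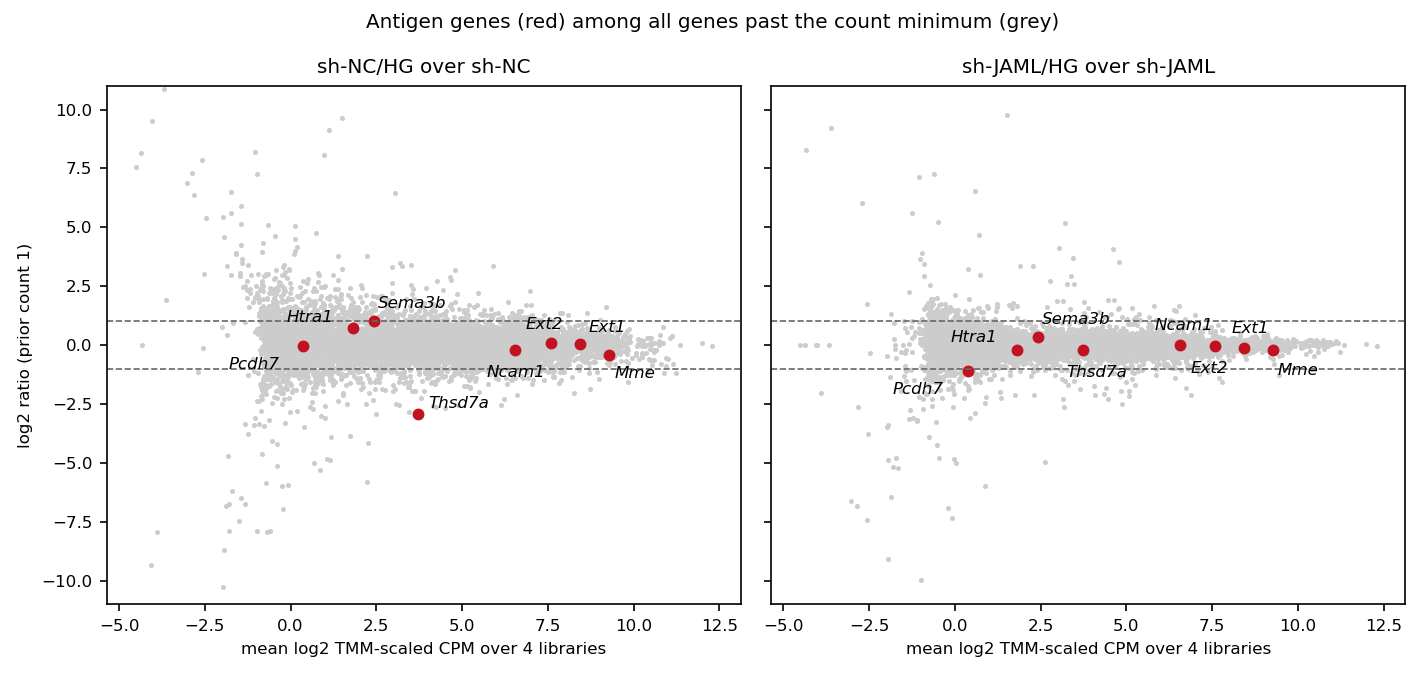
Log2 ratio with glucose against mean log2 TMM-scaled CPM for the 14187 genes past the count minimum (grey) and the 8 measured antigen genes (red), in the control line (left) and the Jaml hairpin line (right); dashed lines mark 2-fold. On the left Thsd7a lies at -2.95, with 42 genes lower, and on the right it lies inside the cloud, at -0.19.

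The genes with the pattern most like that of Thsd7a over the 4 libraries, among the 12967 genes whose counts averaged 100 or more and by root mean square difference of centred log2 levels, were Cacna1h, a T-type calcium channel gene (0.12), Cfap77 (0.17) and the noncoding gene Dleu2 (0.18). Cacna1h stood at 3.40 CPM in sh-JAML/HG, 3.31 in sh-JAML, 0.386 in sh-NC/HG and 3.43 in sh-NC. In sh-NC/HG, Cacna1h and Cfap77 (0.332 CPM) were near the floor of 0.129 CPM, so their distances carry counting error. No gene came within 0.1 of Thsd7a, against 34 genes within 0.1 of Sema3b. The distance is not scaled to the range of a gene, which was 9.28-fold for Thsd7a and 2.08-fold for Sema3b. These counts of near genes are therefore not alike. The nearest to Sema3b were Creb5, a transcription factor gene (0.033), the phosphatase gene Ptpn6 (0.035) and Mpst (0.047). Nearest to Pcdh7 were the lipin gene Lpin2 (0.065), Plekhs1 (0.073) and Gm8066 (0.082). Pcdh7 itself had only 15 to 36.5 fragments in a library, so these distances carry its counting error. With the antisense counts added, its sh-JAML/HG to sh-JAML ratio was 0.816 instead of 0.467, so the pattern matched here is itself uncertain. With 4 libraries such a likeness rests on 4 points and is a description.

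Of 16 further genes of targets named in membranous nephropathy, 9 averaged 50 counts or more, and 0 of these differed at least 2-fold with glucose in either line or with the hairpin without added glucose, where 7.92%, 2.88% and 2.71% of all genes did. In sh-JAML/HG over sh-NC/HG 1 of 9 did, where 7.59% of all genes did, so these counts are near the shares over all genes. That 1 was Akr1b3, the aldose reductase gene, which stood at 91.9 CPM in sh-JAML/HG, 166.0 CPM in sh-JAML, 197 CPM in sh-NC/HG and 163.0 CPM in sh-NC, with a ratio of 0.467 in sh-JAML/HG over sh-NC/HG (0.443 to 0.493). Npr3, the natriuretic peptide clearance receptor gene, had 609 CPM in sh-JAML/HG, 625 CPM in sh-JAML, 449 CPM in sh-NC/HG and 767 CPM in sh-NC. Fat1, an atypical cadherin gene of the podocyte, was at 795 CPM in sh-NC/HG and 1160.5 CPM in sh-NC, a ratio of 0.685 (0.672 to 0.698), and in the Jaml hairpin line at 1082 CPM with glucose and 950.0 CPM without, a ratio of 1.14 (1.12 to 1.16). Lrp2, the gene of megalin, the target in the rat Heymann model, was at 420 CPM in sh-NC/HG and 299 CPM in sh-NC, a ratio of 1.41 (1.36 to 1.45), and at 232 CPM in sh-JAML/HG and 273 CPM in sh-JAML, a ratio of 0.851 (0.819 to 0.885). The difference between the lines was not tested. The median log2 ratio of the 9 was 0.086 in sh-NC/HG over sh-NC and -0.037 in sh-JAML/HG over sh-JAML. Ntng1, Pcsk6, Cntn1, Ndnf and Mrc1 did not pass 12 units in any library.

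Among relatives of the antigen genes, 17 of 29 averaged 50 counts or more. With glucose in the control line 5 of them reached 2-fold upward and 1 downward, where 4.65% and 3.27% of all genes did. In sh-JAML/HG over sh-NC/HG 0 were higher and 5 lower, where 2.81% and 4.78% of all genes were. In sh-JAML/HG over sh-JAML and in sh-JAML over sh-NC the count was 0 of 17, near the 2.88% and 2.71% of all genes. Mrc2 and Extl1 averaged 50 or more only through sh-NC/HG, where they were high and so had to differ. Without them, a choice made after seeing the data, 15 relatives were left, of which 3 were higher and 1 lower in the control line with glucose. In sh-JAML/HG over sh-NC/HG 3 of the 15 were lower and 0 higher. The shares over all genes given above were not taken under that stricter minimum. The counts of the 15 therefore have no like background and are not read as a result. Mrc2, a collagen-binding relative of Pla2r1, had 20 units in sh-JAML/HG, 26 in sh-JAML, 395 in sh-NC/HG and 21 in sh-NC, a level 16.0-fold that of sh-NC in sh-NC/HG (6.99 to 53.1). Extl1, a relative of the exostosins, had 54, 32, 214 and 40 units in the same order, and Ece2, a peptidase gene related to Mme, 105, 81, 424 and 99. Sema3g, a class 3 semaphorin gene like Sema3b, was at 17.6 CPM in sh-NC/HG and 7.18 CPM in sh-NC, 2.45-fold higher (2.02 to 2.98), and in the Jaml hairpin line at 6.82 CPM with glucose and 10.2 CPM without. Htra3, a serine protease gene like Htra1, had 1.77 CPM in sh-NC/HG and 0.817 CPM in sh-NC, 2.16-fold higher (1.20 to 4.17). Pcdh19, a delta protocadherin gene like Pcdh7, was the 1 lower relative, at 21.5 CPM in sh-NC/HG and 56.5 CPM in sh-NC, a ratio of 0.380 (0.342 to 0.423).

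**Figure D5:**
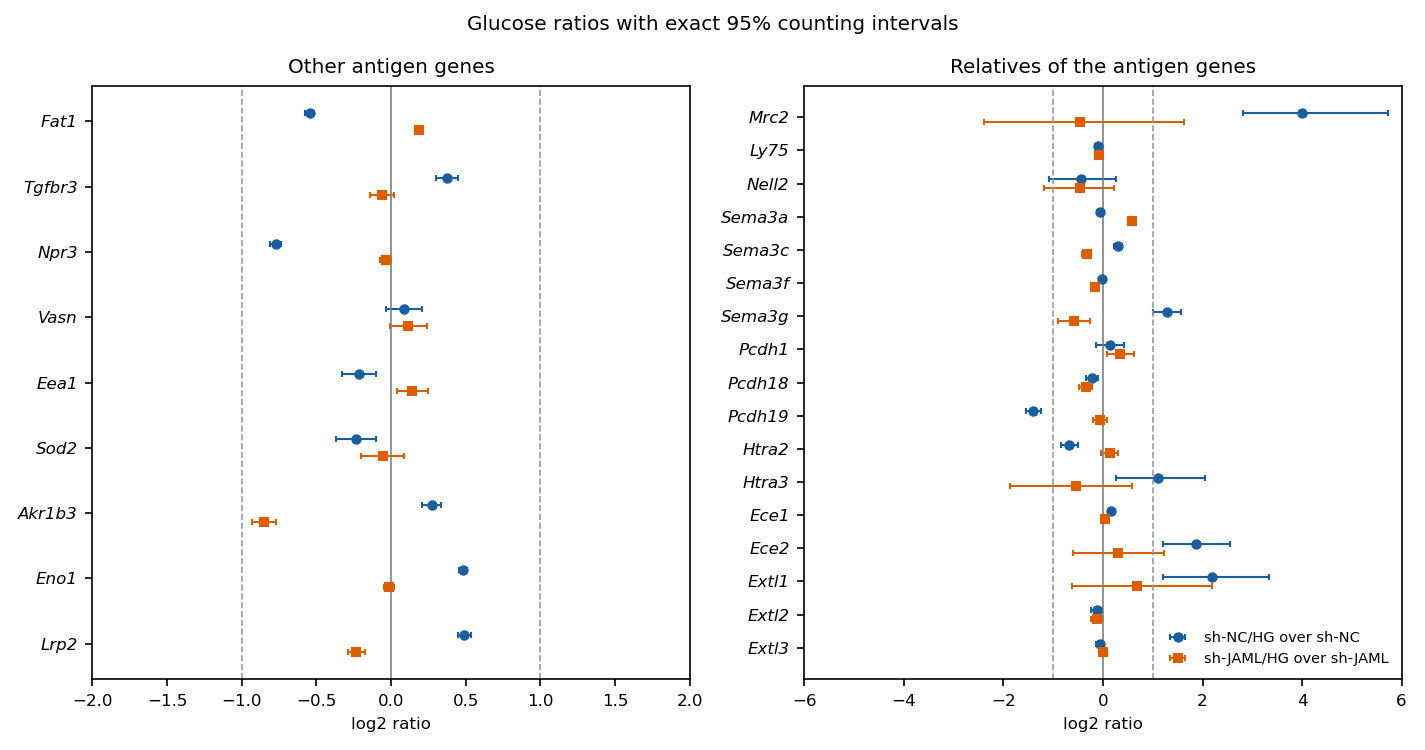
Log2 ratio with glucose in the control line (circles) and the Jaml hairpin line (squares) for the 9 measured further antigen genes (left) and the 17 measured relatives (right), with exact 95% counting intervals; dashed lines mark 2-fold and the x axes differ. No further antigen gene reaches 2-fold, and Mrc2, Sema3g, Htra3, Ece2 and Extl1 lie above it and Pcdh19 below it in the control line.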

How the data were processed

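Per the submitters' processing notes, the reads were handled with CASAVA 1.8 and TopHat2 2.0.6 on build mm10; which counter, annotation and strand setting followed is not given in the sources used here. Values in the deposited table are estimated counts by Ensembl gene, not scaled between libraries. Columns were mapped to groups by name; those for control cells name no hairpin and were taken as sh-NC and sh-NC/HG.

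Symbols, positions and exon lengths came from GENCODE M21 (55394 of 56393 identifiers matched). Counts were scaled with TMM factors from edgeR 4.0.16 in R 4.3.3. A prior count of 1 entered the log2 ratios. A ratio of at least 2-fold counted as apart, among genes whose counts averaged 50 or more. Folds are ratios of scaled counts without a prior, with Clopper-Pearson 95% intervals given the total of the pair, counts being divided by 4 first. The floor was 3 fragments, or 12 units. DESeq2 1.42.0 gave alternative size factors. Ratio recovery was run on simulated counts drawn with counting error only, in the same 4-unit fragments that the intervals assume. It therefore says nothing about spread between cultures. Python 3.11.15, numpy 2.4.6, scipy 1.17.1, pandas 2.3.3 and matplotlib 3.10.9 did the rest. The 10 genes and all lists were chosen with earlier results of these data known. All 10 were named; from the lists, the genes at least 2-fold apart were named by rule (up to 4 per list and pair), and Sema3g, Npr3, Fat1 and Lrp2 after their values were seen. The 3 genes nearest in pattern were named for each antigen gene with a 2-fold range. No test was made, because each group has 1 library.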

Additional observations from a re-analysis of the deposited data

Results flagged for a closer look

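Of the 8 measured antigen genes, 4 had glucose ratios on opposite sides of 1 in the hairpin lines, as 48.6% of all 14187 genes did, and none of these differences was tested. For Htra1 the control line minus the Jaml hairpin line was 0.94 on the log2 scale, for Ncam1 -0.24, for Ext1 0.16 and for Ext2 0.14. The counting interval of at least 1 of the ratios held 1 for each of these genes.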

How the results depend on the processing

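The 8 antigen genes in 4 pairs gave 96 ratios under DESeq2 size factors, library totals or a prior count of 5. The largest move was 0.049 on the log2 scale, and 2 changed sign, Sema3b and Ext2 in sh-JAML over sh-NC under library totals (0.019 and 0.033). Mme in sh-JAML over sh-NC left its counting interval under library totals, at -0.097 against -0.13. The count of antigen genes at least 2-fold apart changed by more than 1.5 times with the count minimum: without one it was 2 in sh-JAML over sh-NC and 4 in sh-JAML/HG over sh-NC/HG, where the additions are Pla2r1 and Nell1 at or under 24 units, and with a mean of at least 200 it was 0 in sh-JAML/HG over sh-JAML and 1 in sh-JAML/HG over sh-NC/HG, since Pcdh7 is then left out. The counts without a minimum are of 10 antigen genes, and the counts over all genes at that setting, given below, rose as well. Adding the antisense counts, an alternative chosen after seeing the data, gave 0 in sh-JAML/HG over sh-JAML and 1 in sh-JAML/HG over sh-NC/HG. TMM factors from the 3 libraries other than sh-NC/HG, also chosen after seeing the data, changed no count in the 2 pairs without that library. Over all genes in sh-NC/HG over sh-NC, 660 were at least 2-fold higher and 464 lower; these are 4253 and 3719 of 28477 genes with no minimum, 338 and 257 with a mean of at least 200, and 1424 and 1271 at 1.5-fold. The other pairs moved by more than 1.5 times under these 3 settings too: sh-JAML/HG over sh-JAML from 186 and 222 to 3244 and 3975, 61 and 78, and 506 and 593, sh-JAML over sh-NC from 186 and 198 to 3938 and 3380, 60 and 77, and 585 and 553, and sh-JAML/HG over sh-NC/HG from 399 and 678 to 3438 and 4106, 214 and 353, and 1184 and 1399. No paired analysis was possible because, with 1 library per group, no replicate numbers pair the libraries. The 1 culture per group, the unknown counting settings and the lack of a Jaml count limit every difference given here.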
